A study of Gallus gallus with 6 samples.

Results

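The genes described here make, take up, bind, sense or break down retinoic acid, the vitamin A derivative that patterns the early embryo. They are CYP26A1, CYP26B1, CYP26C1, DHRS3, ALDH1A2, ALDH1A3, STRA6, CRABP1 and RARB, 9 of 13008 genes named in the array's annotation. They were chosen by symbol, from probe sets that carry a single gene symbol, and 17 of the 37690 probe sets belong to them. The induced group was epiblast of the chick area opaca, the rim of the blastoderm outside the embryo, which had lain for 12 hours under lateral head mesoderm. The mesoderm came from donors at Hamburger-Hamilton stage HH6, was placed in hosts at stage HH4- and was taken off before the epiblast was collected (n = 3). The control group was area opaca from the opposite side, without a graft (n = 3). The comparison asks which transcripts change while mesoderm induces progenitors of the sensory placodes. Tissue was cut by hand. The labels number the samples as biological repeats without saying how many embryos each holds, and the p-values rest on the variation among these 6 samples, part of which may be technical.

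Retinoic acid is made from vitamin A in a pair of oxidation steps, and retinaldehyde dehydrogenases of the ALDH1A family carry out the last one. Cells that receive it read it through nuclear receptors on DNA, while enzymes of the CYP26 family oxidise it to inactive forms and so keep regions such as the early head free of it. Several genes of the pathway, among them CYP26A1, DHRS3 and RARB, are themselves switched on by retinoic acid in many vertebrate tissues.

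Deposited signals are in units of the array software on a linear scale. Levels and differences below are log2(signal + 16) after the arrays had been brought to a common distribution, and a fold change on this scale understates the change of weak genes. Median signals ran from 7.5 to 18.35 units, and both arrays of repeat 1 were the brightest. The epithelial markers CDH1 and EPCAM were strong in both groups. CDH1, which encodes E-cadherin, averaged 10.85 ± 0.11 in induced epiblast and 10.84 ± 0.04 in controls (SD, n = 3 each). EPCAM, an epithelial adhesion molecule, averaged 11.50 ± 0.10 in induced epiblast and 11.44 ± 0.23 in controls (SD, n = 3 each). Of the 12 ectoderm markers listed, 9 had a probe set, 8 of them passed the filter on signal, and their median log2 fold change was 0.13. Of these 8, 6 lay above and 2 below the controls, and 0 passed after adjustment by limma. The differences ran from -0.68 for GRHL3 to 0.89 for GATA3. In GATA3 every induced array lay above every control, which was so in 9.13% of all genes. TP63, the other gene below the controls, had -0.11.

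None of the 9 genes passed the test at an adjusted p under 0.05 (limma, Benjamini-Hochberg over 10118 genes), where 0.376% of all genes did, and 3 of the 9 had an unadjusted p under 0.05, against 11.6% of all genes. The largest differences were higher values of the degrading enzymes CYP26A1 and CYP26C1 and of the retinol transporter STRA6 in induced epiblast, by 1.16 to 1.33 on the log2 scale. The binding protein CRABP1 was lower, with a log2 fold change of -0.76. The synthesis enzymes ALDH1A2 and ALDH1A3, the receptor RARB, the reductase DHRS3 and CYP26B1 had log2 fold changes between -0.25 and 0.24. The 2 groups did not overlap in 1 of the 9, CRABP1, against 16.6% of all genes. The median over the 9 was 0.13, with 6 above and 3 below the controls, beside a median of 0.02 over all genes tested, of which 53.2% lay above the controls.

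**Figure D1:**
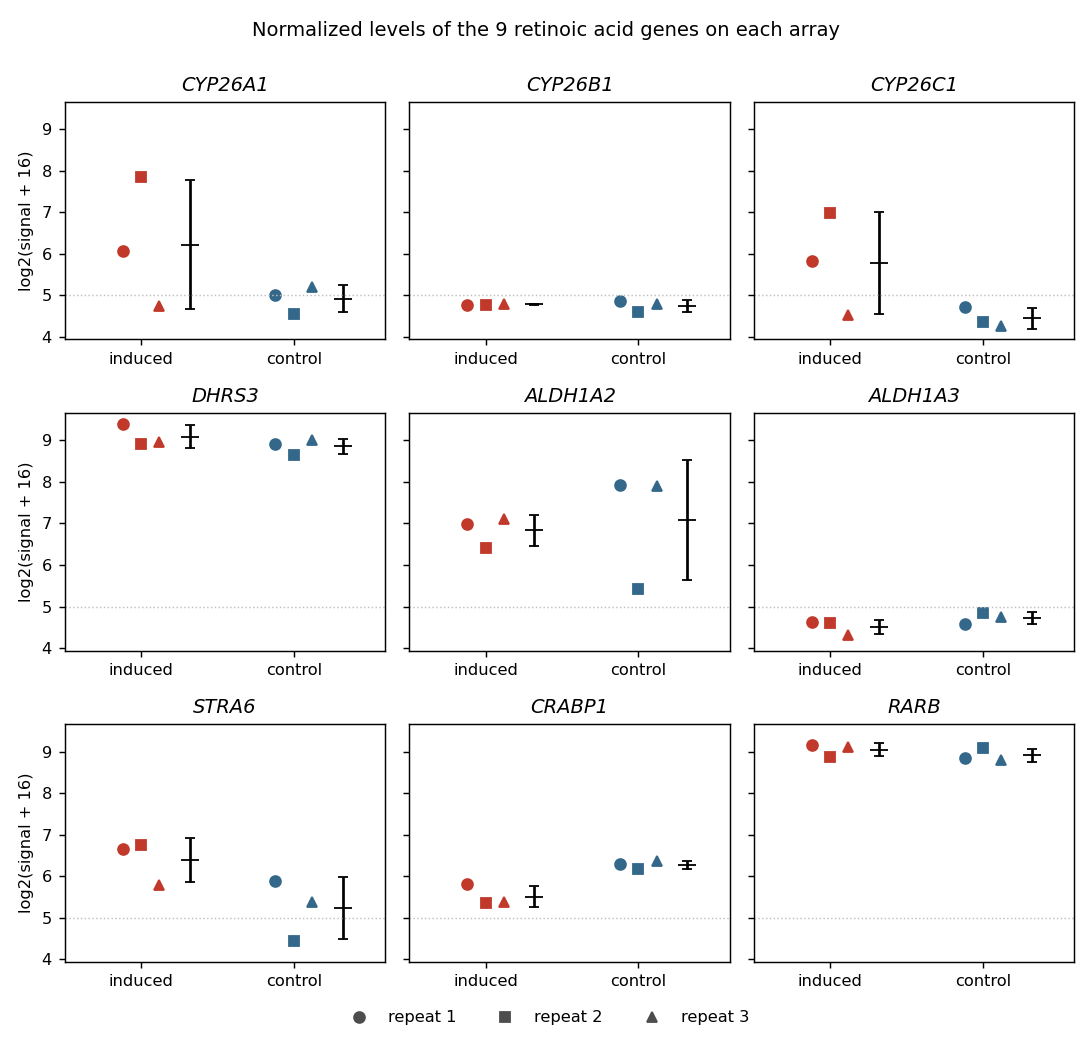
Each panel shows 1 gene, with log2(signal + 16) after normalization on the vertical axis, 1 point for each array (the marker gives the repeat number) and the mean with its SD as a bar, for 3 induced and 3 control arrays. The dotted line is drawn where a signal of 16 units lies before normalization, so among the normalized values it marks no fixed reading. CYP26A1 and CYP26C1 lie well above it on induced arrays 1 and 2 but not on induced array 3.

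CYP26A1 encodes the retinoic acid hydroxylase that is best known from the anterior ectoderm and the tail bud of vertebrate embryos. Its signals were 87.7, 182.7 and 7.4 units in induced samples 1 to 3, against 25.7, 5.2 and 18.2 units in control samples 1 to 3. After normalization these were 6.08, 7.84 and 4.76 in the induced samples and 5.00, 4.56 and 5.20 in the controls. Induced samples 1 and 2 thus lay above every control, while induced sample 3 lay within the control range. The groups averaged 6.23 ± 1.55 in induced epiblast and 4.92 ± 0.33 in controls (SD, n = 3 each). On the log2 scale they differed by 1.31 (SE 0.60, 95% interval -0.03 to 2.64, limma adjusted p = 0.442). Without induced sample 2 it was 0.50 and without induced sample 3 it was 2.10 (limma adjusted p = 0.94 and 0.0674).

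CYP26C1, a further member of the family that in the chick is known from the anterior head, is the direct neighbour of CYP26A1 in the RefSeq gene order of the assembly GRCg7b, with 0 protein-coding genes between them. Its probe set with the highest mean gave 67.9, 93.1 and 5.0 units in induced samples 1 to 3, against 16.5, 3.0 and 2.7 units in control samples 1 to 3. This probe set is of a kind that can match several transcripts. A probe set of the gene that is not of this kind gave 48.8, 69.2 and 3.4 units in the induced samples, against 2.1, 0.4 and 1.0 units in the controls. In the first of them the induced and control values overlapped, and in the second each induced array lay above each control, although induced sample 3 did so by little. The log2 fold change was 1.33 (SE 0.48, 95% interval 0.26 to 2.40, limma adjusted p = 0.321 over genes) in the first and 1.41 (SE 0.43, 95% interval 0.45 to 2.38, limma adjusted p = 0.299 over probe sets) in the second. Control means of both, 4.45 and 4.09, lay below the filter at 4.50, so the gene was tested only because it was high in the induced group. A probe set of the gene below the filter reached at most 2.2 units on any array.

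The difference of CYP26C1 passed the test once induced sample 3 was left out, with a log2 fold change of 2.03 (limma adjusted p = 0.0261), in a setting where 1.18% of all genes passed. That fit leaves out the induced array on which the gene was lowest, in a gene tested only because it was high in the induced group. The pass is therefore given as a description. Without induced sample 2 it was 0.74 (limma adjusted p = 0.841). In both CYP26A1 and CYP26C1 induced sample 2 was the highest and induced sample 3 the lowest of the induced arrays. Between the bright arrays of repeat 1 CYP26A1 differed by 1.08 and CYP26C1 by 1.10, and between the 4 dimmer arrays by 1.42 and 1.45. The dimmer values are means of unlike differences in repeats 2 and 3. These were 3.28 and -0.44 for CYP26A1, and 2.62 and 0.28 for CYP26C1.

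CYP26B1, the family's member known from hindbrain and limb, was weak. Its stronger probe set read 18.5, 8.5 and 8 units in induced samples 1 to 3, against 20.7, 5.6 and 10 units in control samples 1 to 3. Its log2 fold change was 0.04 (SE 0.15, 95% interval -0.30 to 0.38, limma adjusted p = 0.96), and its sign turned without normalization (-0.0076) and without control sample 2 (-0.040). A further probe set stayed at or below 5.6 units on every array.

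DHRS3 reduces retinaldehyde back to retinol and so withdraws the precursor. Its stronger probe set read 1142.6, 396.8 and 294 units in induced samples 1 to 3, against 803.5, 279.4 and 429.1 units in control samples 1 to 3. Levels averaged 9.09 ± 0.27 in induced epiblast and 8.85 ± 0.19 in controls (SD, n = 3 each), and the values of both groups overlapped. The log2 fold change was 0.24 (SE 0.17, 95% interval -0.15 to 0.63, limma adjusted p = 0.677). The weaker probe set had 0.59 (SE 0.26, 95% interval 0.02 to 1.17, limma adjusted p = 0.495 over probe sets), with induced sample 1 at 6.99 and the other induced samples at 6.31 and 6.23, against 5.93, 5.59 and 6.23 in the controls.

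ALDH1A2, the main enzyme of retinoic acid synthesis in the trunk mesoderm of vertebrate embryos, had the widest spread between controls among the 9 genes. It read 190.9, 58.4 and 76.1 units in induced samples 1 to 3, against 394.2, 18.3 and 192.5 units in control samples 1 to 3. On the normalized scale the induced samples were at 6.98, 6.42 and 7.11, against 7.94, 5.41 and 7.91 in the controls. Control samples 1 and 3 thus lay above all induced arrays and control sample 2 below all of them. The log2 fold change was -0.25 (SE 0.57, 95% interval -1.52 to 1.02, limma adjusted p = 0.929). It was -1.09 without control sample 2 (limma adjusted p = 0.141), 0.16 without control sample 1 and 0.17 without control sample 3. The gene's next probe set showed the same low value of control sample 2, with 42.9, 17.8 and 21.8 units in the induced samples, against 179.7, 13.6 and 70.1 units in the controls, and a log2 difference of -0.79 (SE 0.39, limma adjusted p = 0.564 over probe sets). A probe set below the filter reached at most 2.3 units.

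ALDH1A3, a related synthesis enzyme known from the eye and nose region, read 14.3, 5.9 and 2.6 units in induced samples 1 to 3, against 12.3, 8.9 and 9.2 units in control samples 1 to 3. Every value was thus under 16 units, where the added constant dominates the scale. Its log2 fold change was -0.21 (SE 0.16, 95% interval -0.57 to 0.15, limma adjusted p = 0.69).

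STRA6 encodes the membrane receptor that takes up retinol from its plasma carrier. It read 145.7, 76.5 and 24.8 units in induced samples 1 to 3, against 70.5, 3.8 and 23.0 units in control samples 1 to 3. After normalization the values were 6.65, 6.75 and 5.78 in the induced samples and 5.89, 4.43 and 5.38 in the controls. Induced samples 1 and 2 lay above every control, induced sample 3 lay below control sample 1, and control sample 2 was the lowest. The groups averaged 6.39 ± 0.53 in induced epiblast and 5.23 ± 0.74 in controls (SD, n = 3 each). The log2 fold change was 1.16 (SE 0.37, 95% interval 0.33 to 1.99, limma adjusted p = 0.246). It was 0.77 without control sample 2 and 1.51 without induced sample 3 (limma adjusted p = 0.517 and 0.114).

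CRABP1 binds retinoic acid in the cytoplasm. It read 67, 20 and 16.3 units in induced samples 1 to 3, against 102.8, 38.7 and 58.3 units in control samples 1 to 3. The normalized values were 5.81, 5.35 and 5.37 in the induced samples and 6.28, 6.17 and 6.37 in the controls, so that every induced array lay below every control. Levels averaged 5.51 ± 0.26 in induced epiblast and 6.27 ± 0.10 in controls (SD, n = 3 each). This is a log2 difference of -0.76 (SE 0.20, 95% interval -1.20 to -0.32, limma adjusted p = 0.158), with the lowest p of the 9 genes. Leaving out single arrays gave values of -0.88 to -0.69, and the difference was -0.48 between the bright arrays and -0.91 between the dimmer ones.

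RARB encodes a retinoic acid receptor. Its strongest probe set read 955, 383.1 and 331.9 units in induced samples 1 to 3, against 768.5, 388.2 and 371 units in control samples 1 to 3. Levels averaged 9.04 ± 0.15 in induced epiblast and 8.91 ± 0.15 in controls (SD, n = 3 each), and the groups overlapped. Induced minus control, this gave 0.13 on the log2 scale (SE 0.15, 95% interval -0.20 to 0.46, limma adjusted p = 0.817). The other 2 probe sets, both of a kind that can match several transcripts of the gene, gave 0.20 (SE 0.19) and 0.42 (SE 0.21), the last with at most 12.5 units on any array.

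**Figure D2:**
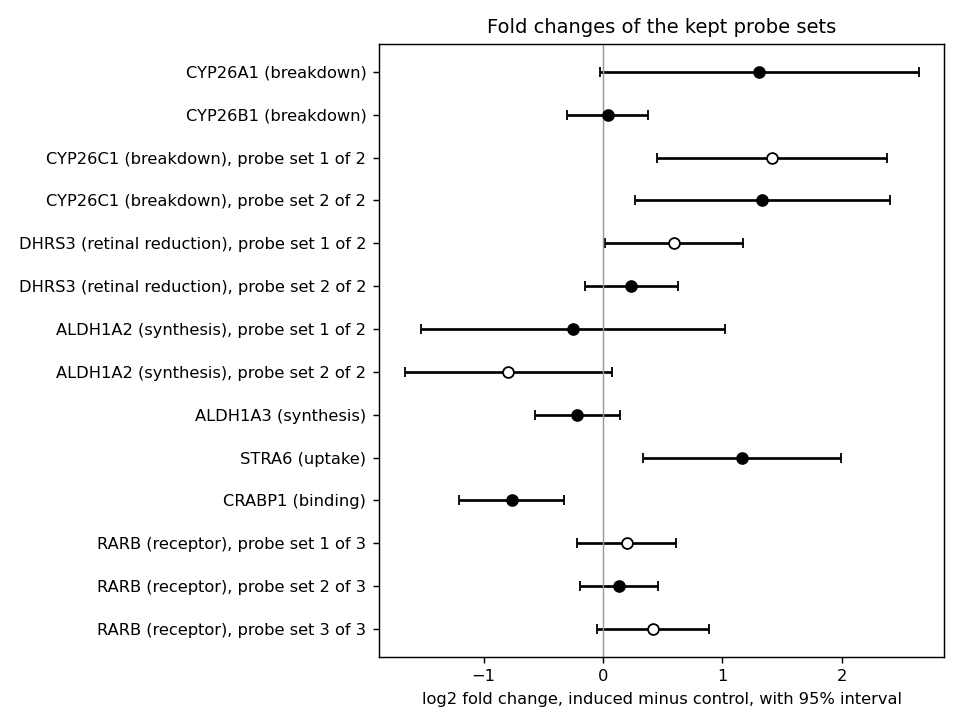
The horizontal axis gives the log2 fold change, induced minus control, and bars are 95% intervals of the fit, for the 14 probe sets that passed the filter on signal. Filled points stand for the gene, open points are its other probe sets, and the intervals of CYP26C1, STRA6, CRABP1 and the weaker probe set of DHRS3 do not reach 0, while none passed after adjustment over all genes or probe sets.

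A list of other genes of retinoid transport, metabolism and reception held 35 names. RBP4 and RBP4A were both matched to the listed name RBP4 and counted as separate genes. Counted so, 26 genes had a probe set and 18 passed the filter on signal. Among these 18, 8 lay above and 10 below the controls with a median of -0.07 on the log2 scale, and 0 passed after adjustment by limma (1 higher and 1 lower at an unadjusted p under 0.05, against 5.61% and 6.02% of all genes). RBP4A, which bears the older name RBP4 of the plasma retinol carrier, had the largest difference. It read 364.5, 127.3 and 236.4 units in induced samples 1 to 3, against 921.5, 591.4 and 1626.9 units in control samples 1 to 3, with no overlap after normalization. Its log2 fold change was -1.92 (SE 0.43, 95% interval -2.88 to -0.97, limma adjusted p = 0.105), and it passed without control sample 1 (limma adjusted p = 0.0482, with 0.435% of all genes) and without induced sample 3 (limma adjusted p = 0.04). TTR, which carries this protein in plasma and stands on the yolk sac endoderm list, had a log2 fold change of -1.53 (limma adjusted p = 0.0526). In the RefSeq gene order RBP4A has 3 protein-coding genes between it and CYP26A1, whose difference had the opposite sign.

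RBP5, a cytoplasmic retinol binding protein, had a log2 difference of 0.41 (SE 0.18, limma adjusted p = 0.4), with all induced arrays above all controls. FABP5, a fatty acid binding protein that can also carry retinoic acid, had 0.58 (SE 0.27), and the alcohol dehydrogenase ADH1C had -0.34 (SE 0.17). RDH10, which oxidises retinol to retinaldehyde, averaged 9.38 ± 0.02 in induced epiblast and 9.54 ± 0.23 in controls (SD, n = 3 each), which differ by -0.16 (SE 0.14, 95% interval -0.47 to 0.15). ALDH1A1, the third enzyme of the ALDH1A family, read at most 18.7 units and had -0.38 (SE 0.22). The receptor partner RXRG had -0.29 (SE 0.23), and RARA and RXRA lay below the filter with at most 7.1 and 15.4 units. CRABP2 and RARG had no probe set with a single symbol.

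Of 28 genes listed as responsive to retinoic acid, 23 had a probe set and 19 passed the filter on signal. In induced epiblast 6 of the 19 lay above and 13 below the controls, with a median of -0.26 on the log2 scale, and 0 passed after adjustment by limma. At an unadjusted p under 0.05, 0 were higher and 7 lower, beside 5.61% and 6.02% of all genes, and these 7 were HOXA3, HOXA4, HOXB1, HOXB3, HOXB5, CDX2 and TSHZ3. The HOX genes encode homeobox factors that give positions along the body axis, CDX2 is a posterior regulator of them, and TSHZ3 is a zinc finger factor. All HOX and CDX genes among the 19 lay below the controls. The 6 genes above the controls were thus all others of the list, of which MEIS1, TSHZ3 and TGM2 lay below. Some of the HOX and CDX genes differed little, with -0.26 for HOXA2, -0.17 for CDX1 and -0.16 for HOXD4. HOXA5 had -0.28 but read at most 17.1 units. Below the filter, HOXB2 had 0.02 and HOXB4 -0.48. Of all genes tested 53.2% lay above the controls. The median of the responsive list stayed below 0 with every array left out and under each scaling, at -0.41 to -0.13 without single arrays.

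HOXB1, a hindbrain HOX gene with well-studied retinoic acid response elements in mouse, read 206.2, 48.8 and 84.2 units in induced samples 1 to 3, against 410.2, 80.9 and 245.3 units in control samples 1 to 3. After normalization the induced samples were at 7.07, 6.22 and 7.24, against 7.99, 7.04 and 8.24 in the controls. Control sample 2 lay within the induced range. The log2 fold change was -0.91 (SE 0.35, 95% interval -1.69 to -0.14, limma adjusted p = 0.351). HOXA4 read 68.9, 20.7 and 45.1 units in induced samples 1 to 3, against 470.1, 36.9 and 272.7 units in control samples 1 to 3. Its log2 fold change was -1.66 (SE 0.53, limma adjusted p = 0.244), and without control sample 2, in which it was low, HOXA4 and HOXB3 passed with -2.40 and -2.11 (limma adjusted p = 0.0286 and 0.0481), where 0.276% of all genes did.

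HOXB5 differed by -0.80 (SE 0.24, limma adjusted p = 0.229), CDX2 of -0.93 (SE 0.29, limma adjusted p = 0.244) and HOXA3 of -0.65 (SE 0.24, limma adjusted p = 0.324), and in these 3 genes no induced array reached the lowest control. No other gene of the 19 had all induced arrays below all controls, which was so in 7.42% of all genes tested. MEIS1 and MEIS2, homeobox partners of HOX proteins, had -0.11 (SE 0.20) and 0.53 (SE 0.43). The orphan nuclear receptor NR2F2 had 0.31 (SE 0.25), and TGM2, a transglutaminase known as a retinoic acid target in cultured mammalian cells, had -0.40 (SE 0.28). NR2F1 had no probe set with a single symbol.

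**Figure D3:**
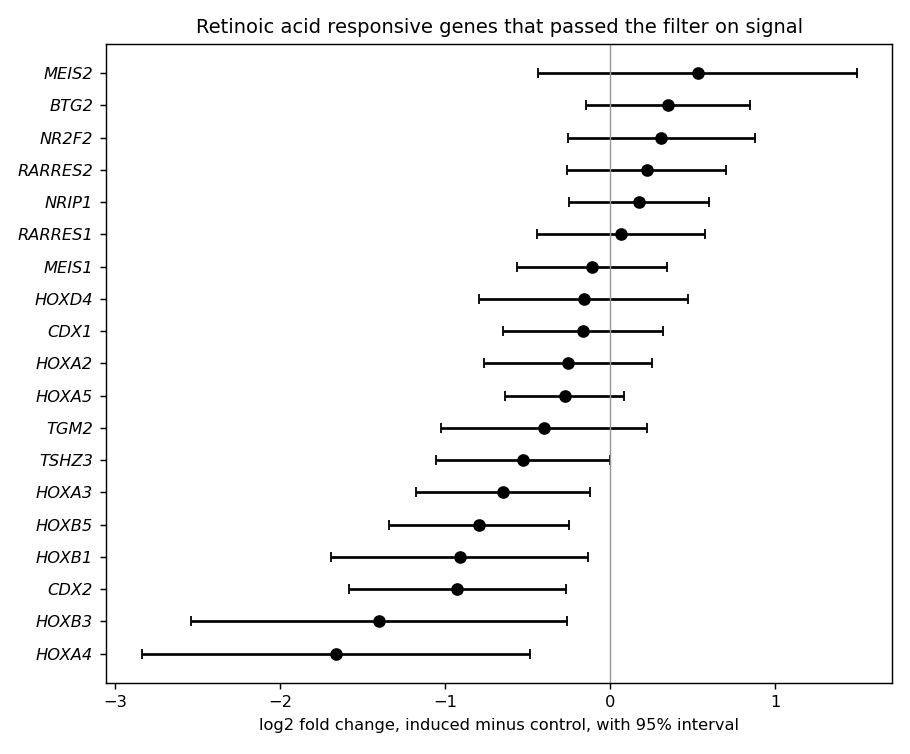
The horizontal axis gives the log2 fold change, induced minus control, for the 19 genes listed as retinoic acid responsive that passed the filter on signal, and bars are 95% intervals. The intervals of HOXA4, HOXB3, CDX2, HOXB1, HOXB5, HOXA3 and TSHZ3 lie below 0, and none of the 19 passed after adjustment over all genes.

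Some markers of other tissues moved with some of these values. Of 16 head mesoderm markers, 14 had a probe set, 7 passed the filter, and 6 were under 16 units on every array, namely TBX1, MEOX1, ALX1, MYF5, TBX5 and TBX20. Of the 7, 4 lay above and 3 below the controls, with a median log2 fold change of 0.02. The summed normalized signal of the list was 823.1 to 1757.8 units in induced samples and 260.4 to 1409.1 units in controls, with the lowest values in induced sample 3 and in control sample 2. Much of this sum came from 2 genes: on induced sample 1 FOXC2 and PRRX1 read 1427.7 and 952.5 of 2988.7 units before normalization. The cardiac and head mesoderm gene NKX2-5 was the 1 marker of this list that passed, by 1.90 (limma adjusted p = 0.0115). FOXC2, a forkhead factor of mesoderm, read 1427.7, 670.4 and 162.1 units in induced samples 1 to 3, against 451.8, 13.6 and 501.1 units in control samples 1 to 3. FOXC2 was thus lowest on induced sample 3 among the induced arrays and on control sample 2 among the controls. So were TWIST1, PRRX1 and NKX2-5, while HAND2, FOXC1 and TCF15, the others of the 7, were not. HAND2 was highest of the induced arrays on induced sample 3 (log2 level 6.52), and FOXC1 and TCF15 were lowest of the controls on control sample 3 (4.25 and 4.92). On control samples 2 and 3 FOXC1 read only 6.4 and 2.7 units, and TCF15 only 11.4 and 12.3 units. STRA6 and CYP26A1 were each the lowest of their group on induced sample 3 and on control sample 2. CYP26C1 was lowest on induced sample 3. On control sample 2 its probe set with the highest mean was not lowest, at 3.0 units against 2.7 on control sample 3. The gene's other kept probe set was lowest there, with a log2 level of 4.06 against 4.11 and 4.10. ALDH1A2, HOXA4 and HOXB3 were lowest of the controls on control sample 2, but on induced sample 3 they were the highest of the induced arrays, with log2 levels of 7.11 for ALDH1A2, 6.47 for HOXA4 and 5.66 for HOXB3. The part of mesodermal RNA in these differences was not tested. In bulk samples fewer cells of a type and less RNA per cell cannot be told apart.

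In the yolk sac endoderm list (12 listed, 12 with a probe set, 10 past the filter, 2 under 16 units on every array) 9 of 10 genes lay below the controls, beside RBP4A and CRABP1. The median log2 difference was -0.89. ALB, SOX17, FOXA2 and TF differed little, with log2 fold changes of -0.08, -0.08, -0.02 and 0.01. In the fit without control sample 3, 3 of 10 lay above the controls. The summed normalized signal of this list was 2077.4 to 2557.4 units in induced samples and 3126.5 to 6803.2 units in controls. The blood and endothelium list (10 listed, 8 with a probe set, 7 past the filter, 0 under 16 units on every array) had all 7 below the controls, with a median of -1.74 and a summed normalized signal of 303 to 1135.2 units in induced samples and 1837.4 to 2599 units in controls. Of these 7, 3 passed, where 0.376% of all genes did, namely TAL1, KDR and LMO2 (limma adjusted p = 0.0112, 0.0112 and 0.0162). In 6 of the 7 every induced array lay below every control, against 7.42% of all genes. Of the yolk sac endoderm list 0 passed, and in 6 of its 10 genes every induced array lay below every control, against the same 7.42% of all genes. The part of these tissues in the values of CRABP1, RBP4A and the HOX genes was not tested.

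**Figure D4:**
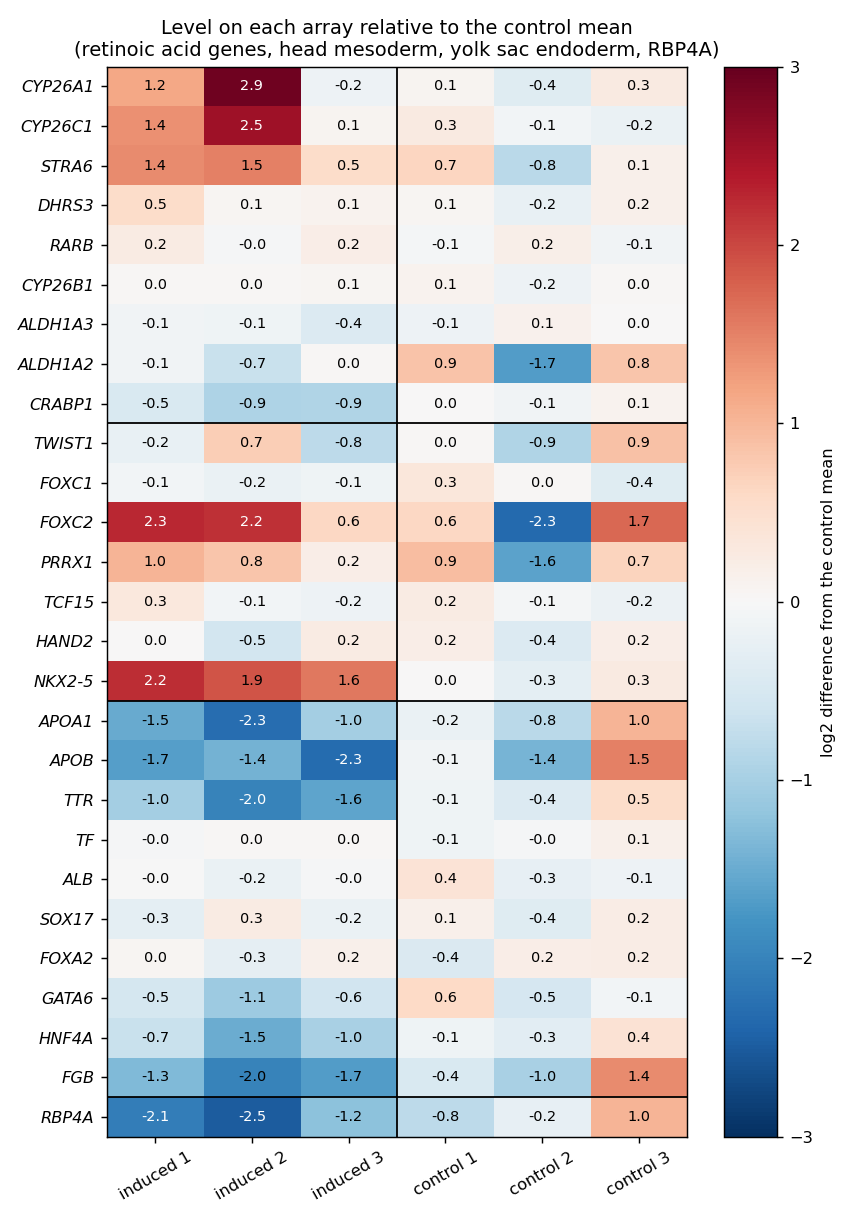
Each cell gives the log2 level of a gene on 1 array minus its control mean, for the 9 retinoic acid genes, all head mesoderm and yolk sac endoderm markers that passed the filter, and RBP4A, with induced arrays in the left columns and control arrays in the right ones. CYP26A1 and CYP26C1 are high on induced arrays 1 and 2, and control array 2 is low for ALDH1A2, STRA6, FOXC2 and PRRX1.

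The 5 genes whose values followed CRABP1 most closely over the 6 arrays, among 3140 genes with an SD of at least 0.3, were PMP22, IMPAD1, CYP4V2, TTR and PTGDS, with Pearson correlations of 0.969 to 0.996. Of these PMP22, a myelin protein, passed the test, with a log2 fold change of -1.22 (limma adjusted p = 0.048), and the other 4 did not. For STRA6 they were RNH1, CCDC80, LOC395159, CLDN11 and QPCT, with correlations of 0.99 to 0.994 and log2 fold changes of 0.46 to 0.63, and none of them passed. These are rankings over 6 arrays of 2 groups and are given as a description.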

How the data were processed

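Total RNA was biotin-labelled as cRNA and hybridized to 1 Affymetrix array for each of 6 samples, per the labels' protocols. The deposited table gives 1 linear intensity per probe set and array, made with MAS5 per the submitters' processing notes. Its version and settings are not stated, and 0 further columns of sample values were present. For arrays, their number limits the precision.

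Intensities were turned into log2(signal + 16) and quantile normalized between arrays, which would hide a shift shared by most genes. The 22614 probe sets with a mean at or above the 40th percentile (4.50) were tested. Induced samples were compared with controls in limma 3.58.1 under R 4.3.3 (variance trend, group as the only term, two-sided, threshold 0.05 after Benjamini-Hochberg). The code was also run on simulated arrays with known changes and independent noise. As deviations of the real arrays were correlated, that run checks the code and not the test on these data. The probe set with the highest mean stood for its gene. For 1 gene alone, the smallest p of an exact permutation test with these 6 arrays is 0.1. Of 37690 probe sets 27166 had 1 symbol in GEO's platform annotation, 177 had several and 10347 none; 26851 symbols were updated by Entrez number through RefSeq genes of GRCg7b. No build is named for the array, so no coordinates are given.

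The members and lists were chosen with earlier results of these data known. Named were all 9 members; in the lists of other retinoid pathway genes and of responsive genes, some fixed whatever their values, any that passed and the 4 with the lowest p. The marker lists are given by counts. CDH1, EPCAM, GRHL3, GATA3, TP63, TTR, ALB, SOX17, FOXA2, TF, TAL1, LMO2 and KDR were named after their values were seen. So were the 7 head mesoderm markers past the filter and the markers under 16 units. HOXB3, TSHZ3, HOXA2, HOXA5, HOXD4, CDX1, HOXB2 and HOXB4 were named in the same way. Alternatives changed the pseudocount, filter, scaling, block, probe set choice, variance trend and arrays.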

Additional observations from a re-analysis of the deposited data

How the results depend on the processing

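With 3 arrays in each group the results depend on single arrays, and the cause of the differences between settings was not tested. Of the 9 retinoic acid genes 0 to 1 passed without single arrays (CYP26C1 without induced sample 3). CYP26C1 passed the filter of the main fit only through its induced values, and induced sample 3 was its lowest induced array. With arrays centred on their medians and the repeat number as a replicate block 2 passed (CYP26C1, STRA6), where 2.61% of all genes did. Without normalization and with that block, added after seeing the data, 3 did (CYP26A1 as well), where 3.53% of all genes did. Both shares are above the 0.376% of the main fit. The replicate block alone left the count of the 9 at 0. Of the other retinoid pathway genes 0 to 1 passed without single arrays, and 1, RBP4A, under each of the 3 fits with the block (limma adjusted p = 0.0195 with the block alone). Of the retinoic acid responsive genes 0 to 2 passed without single arrays, 3 with median centring and the block (beside 2.61% of all genes), and 5 without normalization and with the block (beside 3.53%). Deviations from the group means correlated at 0.55, -0.15 and 0.069 between samples of repeat 1, 2 and 3, and only repeat 1 correlated best with its own number. The labels do not say whether equal numbers share hosts, and with 3 arrays in each group these correlations cannot decide it. The number was therefore no term of the main fit, and shared hosts remain unknown.

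Over all genes 38 passed (20 higher, 18 lower), against 79 with a filter at the 20th percentile, 9 without normalization, 22 with probe sets as features, 21 without a variance trend, 4 in repeats 2 and 3 alone, 48 with the replicate block, 265 with median centring and the block, 359 without normalization and with the block, and 1 to 120 without single arrays (5, 1 and 120 without induced samples 1 to 3, and 44, 28 and 12 without control samples 1 to 3). With median centring 11 were higher and 19 lower. The sign turned for ALDH1A2 without control sample 1 (0.16), without control sample 3 (0.17) and in repeats 2 and 3 alone (0.071), with a range of -1.09 to 0.17 without single arrays. It turned for CYP26B1 without normalization (-0.0076, with or without the block) and without control sample 2, with a range of -0.040 to 0.088 without single arrays. CYP26A1, CYP26C1, DHRS3, STRA6, RARB, ALDH1A3 and CRABP1 kept their sign in all alternatives run, with CYP26C1 at 0.65 to 2.42, where the ends came from the added constant (64 and 1 in place of 16). The probe set of ALDH1A3 can match several transcripts, so the gene had no value once such probe sets were dropped. Weak members, such as ALDH1A3 and CYP26B1, are limited by signal near the floor.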
